A study of Homo sapiens with 6 samples.

Results

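The 4 Fos genes, 3 Jun genes and 3 early growth response (EGR) genes, 10 of the 23228 genes in the deposited tables and taken by their symbols, are described here. AP-1 is a transcription factor made of pairs of bZIP proteins. A Fos protein (FOS, FOSB, FOSL1 or FOSL2) pairs with a Jun protein (JUN, JUNB or JUND), Jun proteins can also pair with each other, and the pair binds the DNA site known as the TRE. EGR1, EGR2 and EGR3 are zinc finger transcription factors that bind GC-rich sites. FOS, FOSB, JUN, JUNB and the EGR genes are classical immediate early genes, whose transcription rises within minutes of a growth factor or stress signal through MAP kinases and serum response factor, while JUND is expressed more steadily. In liver, JUN is known for its part in regeneration and in the early steps of hepatocellular carcinoma (HCC).

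RNA of these 10 genes was compared between 3 control libraries and 3 libraries labelled PELP1-KD of Hep3B, an established human HCC cell line grown in RPMI medium. Control cells carried a non-targeting shRNA, and PELP1-KD cells carried an shRNA against PELP1, a scaffold protein of chromatin and kinase complexes. Both were stable lines from lentiviral transduction, and the labels describe the knockdown cells as pooled clones after puromycin. Library titles point to the first of the PELP1 hairpins, but the protocol lists both, so the hairpin used is uncertain. The sources also differ on whether polyadenylated RNA was selected or ribosomal RNA removed, and nothing states that replicates were separate cultures, so a p value measures the spread between these libraries, which may be technical.

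Reads on genes numbered 26758180 in the shallowest library and 34456393 in the deepest. PELP1 itself had 4970 ± 115 normalized reads in control and 4695 ± 238 in libraries labelled PELP1-KD (SD, n = 3 each), or 94.5% of control (log2 fold change −0.08, 95% interval −0.17 to 0.00, adjusted p = 0.101 from edgeR). Blocking on replicate number gave an adjusted p of 0.0106, and without PELP1-KD replicate 3 it was 0.018. The study itself reported less PELP1 protein in knockdown Hep3B cells by Western blot, and less PELP1 staining in xenografts of such cells. Read counts do not measure protein. Because PELP1 RNA was close to the control level, these libraries are called by their labels, and each direction below is that of the labels. The hepatocyte markers ALB, AFP, TF, APOA1, APOB, TTR, SERPINA1, HNF4A and GPC3 were all present, of which AFP and HNF4A rose and the other 7 fell. Of 5 endothelial markers, CDH5, KDR and TEK had no read in the 6 libraries, VWF had too few to be tested, and PECAM1 was present and not called (adjusted p = 0.656). Their summed level was 0.450 to 0.510 RPKM (reads divided by exon length and by scaled library depth) in control and 0.434 to 0.479 RPKM in libraries labelled PELP1-KD. Of 8 fibroblast markers, COL1A2 and LUM were plainly present and THY1 had no read.

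Of the 10 genes, 8 passed the filter on low counts, and all 8 had an adjusted p below 0.05. In libraries labelled PELP1-KD, 5 of them were lower (EGR1, FOS, JUN, JUNB and JUND) and 3 were higher (FOSB, FOSL1 and FOSL2). Over all 14537 genes tested, 53.6% passed this threshold, 26.8% as higher and 26.8% as lower. EGR1 fell 5.36-fold and was the only member to change at least 2-fold, whereas 7.65% of all genes tested did so (4.79% lower and 2.85% higher). The groups did not overlap for any of the 8 members, as for 58.8% of all genes tested. DESeq2 called 5 of the 8 members, and 41.7% of all genes it tested. The median log2 fold change of the 8 genes was −0.24, against 0.00 over all genes tested. Read counts from bulk RNA cannot tell fewer cells expressing a gene from less of its RNA per cell.

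The promoter of EGR1, the gene that fell most, is shown with those of FOS and FOSB, a pair of close relatives that went in opposite directions. Each line gives the 250 bases upstream of the RefSeq start, 5′ to 3′, and capitals mark CArG boxes (the site of serum response factor), TGACG (the core of the cAMP response element, CRE, written CGTCA where it lies on the other strand, as in EGR1) and TATAAA. The windows come from the GRCh38.p14 promoter table of RefSeq and were placed by exact match on GRCh37, the build of the deposited tables: chr5:137800918-137801167 (plus strand) for EGR1, chr14:75745281-75745530 (plus strand) for FOS and chr19:45971004-45971253 (plus strand) for FOSB.
EGR1: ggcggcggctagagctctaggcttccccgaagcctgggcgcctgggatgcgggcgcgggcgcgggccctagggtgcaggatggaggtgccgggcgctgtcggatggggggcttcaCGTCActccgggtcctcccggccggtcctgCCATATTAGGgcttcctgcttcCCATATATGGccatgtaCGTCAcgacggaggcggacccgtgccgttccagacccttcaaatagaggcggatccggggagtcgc
FOS: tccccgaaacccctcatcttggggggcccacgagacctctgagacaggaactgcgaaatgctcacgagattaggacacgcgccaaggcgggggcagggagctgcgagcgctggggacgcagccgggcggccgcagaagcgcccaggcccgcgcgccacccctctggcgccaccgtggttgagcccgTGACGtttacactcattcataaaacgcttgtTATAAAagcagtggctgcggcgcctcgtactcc
FOSB: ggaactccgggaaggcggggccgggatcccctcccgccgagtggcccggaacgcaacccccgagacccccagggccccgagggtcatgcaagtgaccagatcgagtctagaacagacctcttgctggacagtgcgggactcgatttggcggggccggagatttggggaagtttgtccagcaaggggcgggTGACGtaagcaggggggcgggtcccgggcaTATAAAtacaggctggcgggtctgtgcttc
The RefSeq start of FOS lies 50 bases inside the first exon of the deposited annotation, that of FOSB 1 base inside, and that of EGR1 lies 13 bases upstream of it.

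The EGR1 window held 2 CArG boxes, CCATATTAGG at −105 to −96 and CCATATATGG at −83 to −74 from the start. A window for EGR2 at chr10:64576127-64576376 (minus strand) held 1 (CCATATATGG, −71 to −62). The RefSeq start of this window lies 2801 bases inside the EGR2 gene of the deposited annotation. The other EGR2 windows, at chr10:64578536-64578785 and chr10:64578928-64579177, held none, and neither did the windows of the other members. Over 34796 promoter windows of the same length, 1.17% held a CArG box. TGACG, searched on both strands, was present in at least 1 window of all 8 members searched, and in 21.2% of all windows. FOS and FOSB had it at nearly the same place (−64 to −60 and −60 to −56), followed by TATAAA (−33 to −28 and −30 to −25). TATAAA was also present in JUNB and in 10.8% of all windows. The full CRE, TGACGTCA, which contains TGACG, was present in JUND alone among these members (−200 to −193) and in 1.64% of all windows. TGACTCA, the TRE, and the EGR sites GCGTGGGCG and GCGGGGGCG were in no window of a member. These are matches of letters in 250 bases, and FOSL1 and EGR3 were not searched. Sites further upstream were not searched for any member, so a window without a CArG box, as for FOS, does not mean a gene without one.

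The EGR1 gene occupies bases 137801181 to 137805004 of chromosome 5 (hg19, plus strand), and none of the members has exon bases in common with another gene of the tables on either strand. It had 894, 818 and 754 reads in control replicates 1 to 3 and 136, 127 and 146 reads in PELP1-KD replicates 1 to 3. Every control library thus held several times the reads of every library labelled PELP1-KD. Scaling to library size gave means of 774 ± 50.8 and 144 ± 4.64 normalized reads (SD, n = 3 each), or 18.7% of control. On the log2 scale EGR1 changed by −2.42 with a standard error of 0.08 (95% interval −2.60 to −2.25, edgeR adjusted p = 5.12e-15). Libraries with the same replicate number differed by −2.54, −2.39 and −2.29 on the log2 scale. Only 212 of the 14537 tested genes had a lower log2 fold change. The 10 nearest tested genes on each side of EGR1 had a median log2 fold change of −0.01, with 7 lower and 4 higher.

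EGR2 and EGR3 were at the limit of detection in both groups. EGR2, known for its role in Schwann cell myelination, had 2, 2 and 1 reads in control and 2, 1 and 3 in libraries labelled PELP1-KD. Of its 11 reads, 54.5% came from libraries labelled PELP1-KD (95% exact binomial interval 23.4% to 83.3%, counting error only), which held 47.1% of the scaled depth. EGR3, a factor of muscle spindles and lymphocytes, had 0, 0 and 0 reads in control and 2, 0 and 1 in libraries labelled PELP1-KD. A count of 0 in 1 library allows up to 3 reads, which for EGR3 is a level of 0.019 to 0.025 RPKM. No difference in EGR2 or EGR3 was detectable at this depth. EGR1 thus made up between 97.5% and 99.9% of the summed EGR level in each of the 6 libraries.

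**Figure D1:**
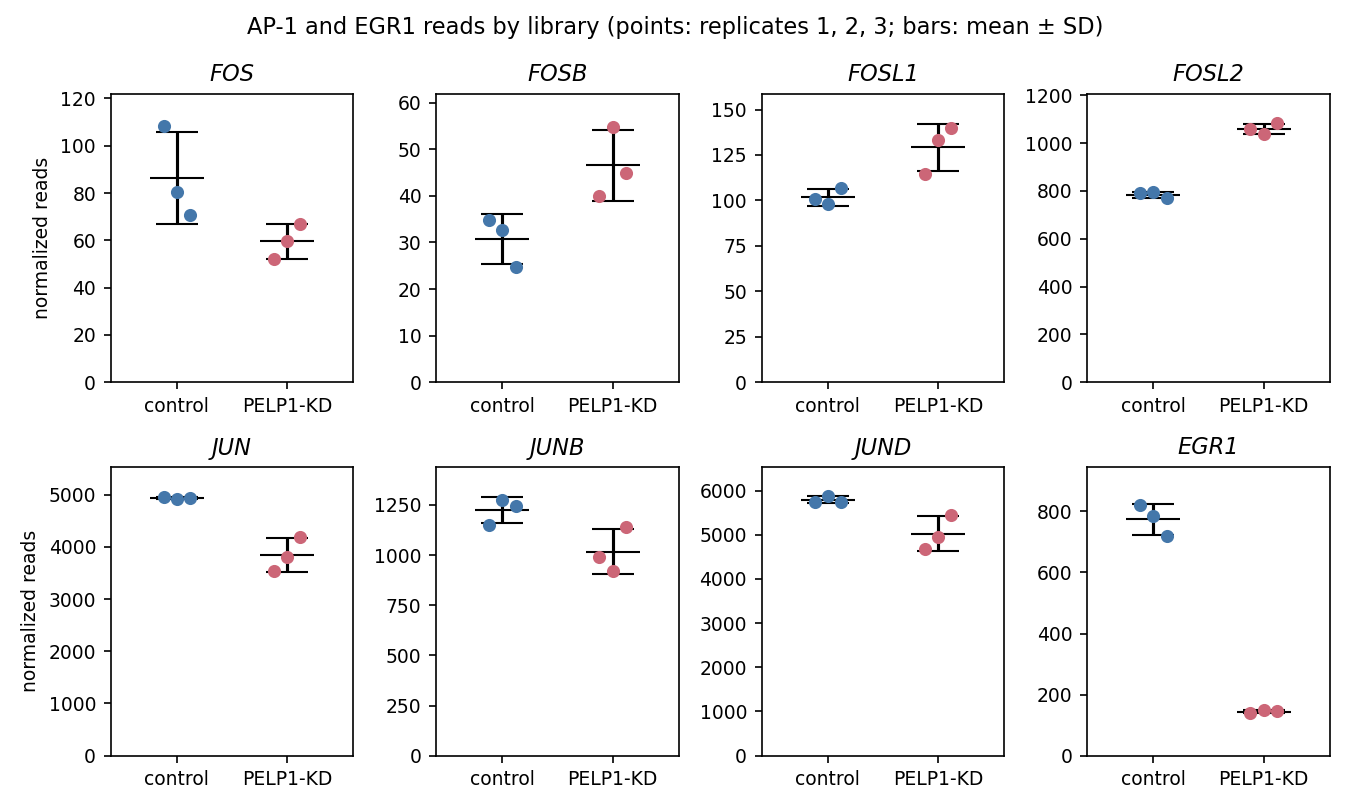
Normalized reads (y axis, from 0) of the 8 tested genes in each library, by group, with points for replicates 1 to 3 from left to right and black bars for the mean ± SD. EGR1 falls from 774 to 144 normalized reads, FOSL2 rises from 784 to 1060, and in each panel the groups do not overlap.

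All 3 Jun genes were lower in libraries labelled PELP1-KD, by less than 2-fold. JUN, which encodes a strong activator, lies on chromosome 1 from 59246463 to 59249785 on the minus strand. It had 5402, 5126 and 5184 reads in control and 3461, 3261 and 4194 in libraries labelled PELP1-KD. After scaling, the 3 control values lay close together (4937 ± 20.8 normalized reads, SD, n = 3), and the PELP1-KD values lay below them with a wider spread (3846 ± 325, SD, n = 3). JUN thus stood at 77.9% of control, with a log2 fold change of −0.36 and a standard error of 0.05 (adjusted p = 3.03e-06).

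JUNB, which often restrains JUN and cell cycle entry, lies on chromosome 19 from 12902310 to 12904125 on the plus strand. It had 1255, 1330 and 1307 reads in control and 968, 787 and 1140 in libraries labelled PELP1-KD. Scaled to library size, the highest PELP1-KD value (1139) lay just under the lowest control value (1150). JUNB changed by −0.27 on the log2 scale, with a standard error of 0.07 (adjusted p = 0.00228). JUND, the most abundant member, lies on the same chromosome from 18390563 to 18392432 on the minus strand. It had 6275, 6134 and 6032 reads in control and 4566, 4251 and 5453 in libraries labelled PELP1-KD. JUND changed by −0.20 on the log2 scale, with a standard error of 0.05 (adjusted p = 0.000823), and its groups did not overlap after scaling. PELP1-KD replicate 3 was the highest of its group for JUN, JUNB and JUND, by 0.13, 0.17 and 0.12 above the group mean on the log2 scale. Between libraries of the third replicate number the differences were accordingly the smallest, at −0.24 for JUN, −0.13 for JUNB and −0.08 for JUND. All 3 genes kept an adjusted p below 0.05 with any single library left out, with log2 fold changes of −0.43 to −0.30 for JUN, −0.36 to −0.20 for JUNB and −0.27 to −0.15 for JUND.

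The Fos family did not move in one direction. FOS, the c-Fos proto-oncogene, lies on chromosome 14 from 75745481 to 75748937 on the plus strand. It had 118, 84 and 74 reads in control and 51, 51 and 67 in libraries labelled PELP1-KD. Control replicate 1 stood above the rest, and the lowest control value after scaling (70.6 normalized reads) was close to the highest PELP1-KD value (66.9). FOS changed by −0.54 on the log2 scale, with a standard error of 0.18 (95% interval −0.92 to −0.16, edgeR adjusted p = 0.0181). Libraries with the same replicate number differed by −1.02, −0.42 and −0.07. FOS was not called by DESeq2 (adjusted p = 0.0581), without control replicate 1 (log2 fold change −0.34, adjusted p = 0.158) or without PELP1-KD replicate 1 (−0.45, adjusted p = 0.0679).

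FOSL2 (Fra-2) was the Fos gene with the most reads and the steadiest rise. It lies on chromosome 2 from 28615779 to 28637516 on the plus strand and had 861, 828 and 806 reads in control and 1034, 891 and 1083 in libraries labelled PELP1-KD. After scaling, the values of each group lay close together, at 784 ± 13.2 and 1060 ± 21.1 normalized reads (SD, n = 3 each), and the groups did not overlap. FOSL2 changed by 0.44 on the log2 scale, with a standard error of 0.05 (adjusted p = 8.53e-07). Between libraries with the same replicate number the differences were 0.42, 0.39 and 0.49. FOSL2 varied little between replicates, and 6.96% of the tested genes with at least 100 normalized reads had a smaller spread within groups.

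FOSL1 and FOSB were rarer, and their calls were less secure. FOSL1 (Fra-1), a Fos protein that lacks the activation domain of FOS and accumulates under sustained ERK signaling, lies on chromosome 11 from 65659692 to 65667997 on the minus strand. It had 110, 102 and 112 reads in control and 112, 114 and 140 in libraries labelled PELP1-KD. Scaled means were 102 ± 4.62 and 129 ± 13.0 normalized reads (SD, n = 3 each), and FOSL1 changed by 0.34 on the log2 scale with a standard error of 0.13 (adjusted p = 0.032). FOSB, best known from neurons, lies on chromosome 19 from 45971253 to 45978437 on the plus strand. It had 38, 34 and 26 reads in control and 39, 47 and 45 in libraries labelled PELP1-KD. FOSB changed by 0.59 on the log2 scale, with a standard error of 0.22 (95% interval 0.12 to 1.06, adjusted p = 0.0337), and its groups did not overlap after scaling. DESeq2 called neither gene (adjusted p = 0.125 for FOSL1 and 0.124 for FOSB). FOSL1 was not called without control replicate 1 (adjusted p = 0.0738) or 2 (0.0914), nor without PELP1-KD replicate 2 (0.0804) or 3 (0.12). FOSB was not called without control replicate 2 (adjusted p = 0.0574) or 3 (0.133), nor without PELP1-KD replicate 2 (0.142). The direction of both genes was the same in all of these fits.

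**Figure D2:**
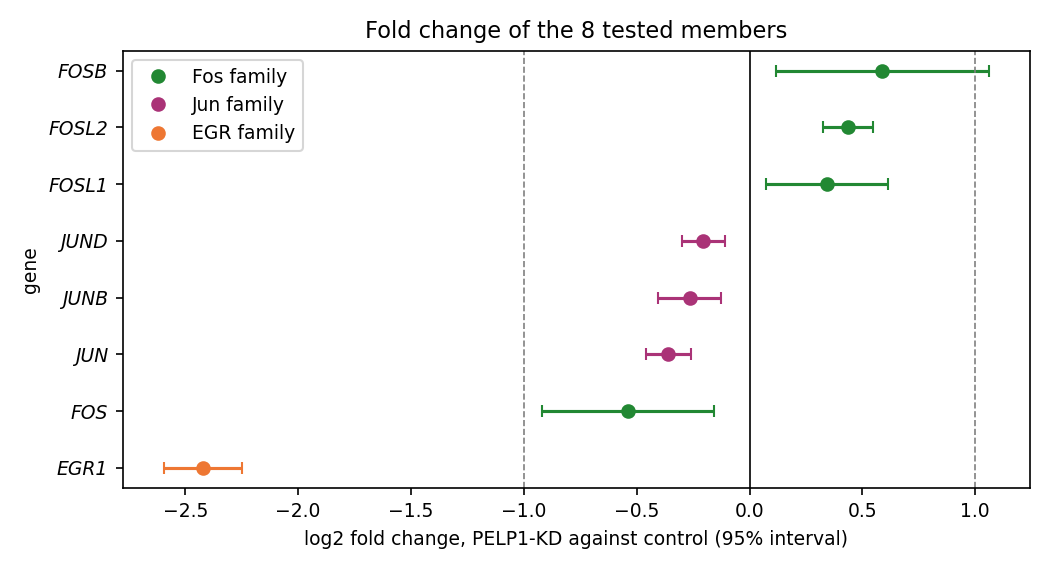
Log2 fold change of each tested gene (x axis, PELP1-KD against control, with 95% intervals from edgeR), colored by family, with dashed lines at a 2-fold change. EGR1 lies at −2.42, the Jun genes between −0.36 and −0.20, FOS at −0.54, and FOSL1, FOSL2 and FOSB between 0.34 and 0.59.

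Per length of exon, the genes kept clearly separate levels. In control libraries the mean level was 98.6 RPKM for JUND, 47.3 for JUN, 21.5 for JUNB, 7.86 for EGR1, 6.25 for FOSL2, 1.94 for FOSL1, 1.27 for FOS and 0.259 for FOSB. No neighbors in this order overlapped between libraries. In libraries labelled PELP1-KD EGR1, at 1.47 RPKM, came after FOSL2 (8.45 RPKM) and FOSL1 (2.46 RPKM), and the other genes kept their places, again without overlap between neighbors. EGR2 had 0.016 RPKM in control and 0.021 RPKM in libraries labelled PELP1-KD, and in the latter its values overlapped those of EGR3.

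Within the Jun family, JUND made up 58.9% ± 0.301 of the summed level in control and 61.0% ± 0.525 in libraries labelled PELP1-KD (SD, n = 3 each), and JUN made up 28.3% ± 0.451 and 26.3% ± 0.338. The Jun genes together had 167 ± 1.99 RPKM in control and 140 ± 11.3 RPKM in libraries labelled PELP1-KD. Within the Fos family, FOSL2 made up 64.3% ± 1.77 in control and 69.4% ± 2.19 in libraries labelled PELP1-KD, and FOS made up 13.0% ± 2.45 and 7.19% ± 0.618. The summed Fos level was 9.73 ± 0.349 RPKM in control and 12.2 ± 0.462 RPKM in libraries labelled PELP1-KD. The summed Jun level was therefore between 16.4 and 17.7 times the summed Fos level in the control libraries and between 11.2 and 12.1 times in the libraries labelled PELP1-KD, 2 ranges that do not overlap. These sums were not tested.

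**Figure D3:**
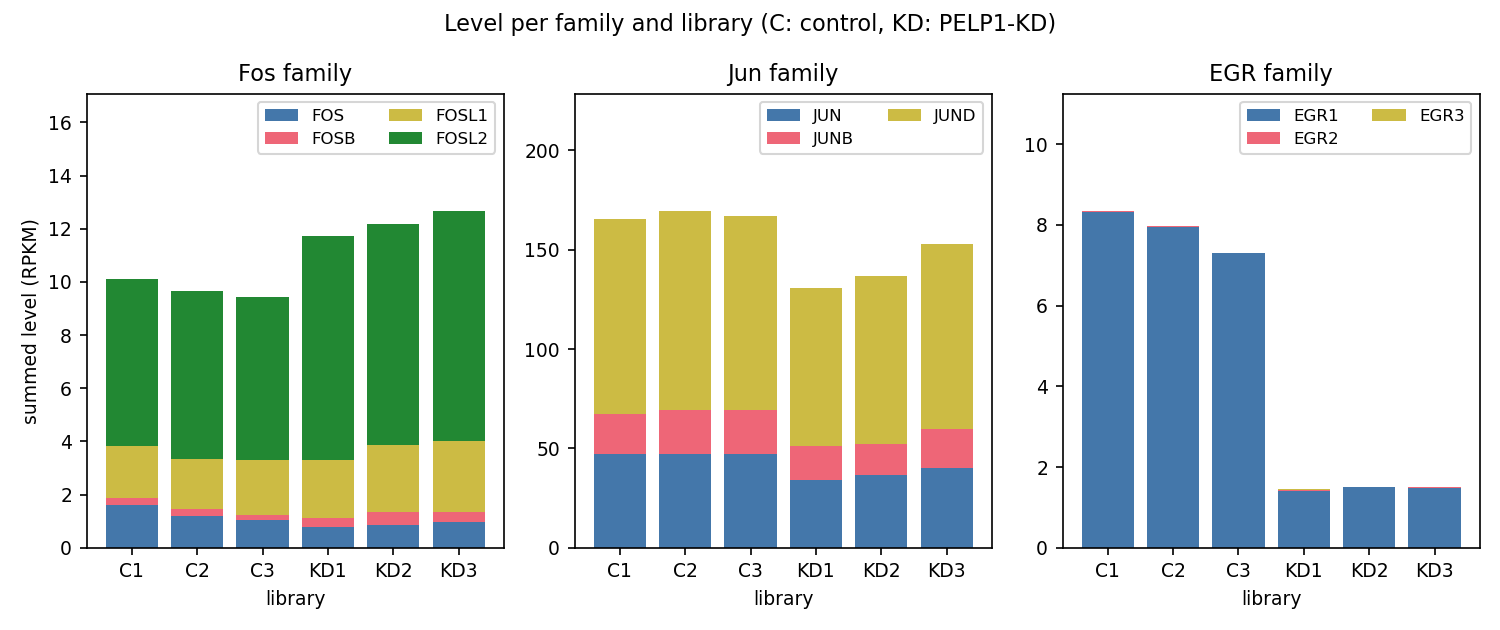
Summed level of each family (y axis, RPKM, from 0) in the 3 control (C) and 3 libraries labelled PELP1-KD (KD), with each member as a colored segment and a separate scale for each family. The Fos bars are taller in libraries labelled PELP1-KD through FOSL2, the Jun bars are shorter in all 3 members, and the EGR bar is almost entirely EGR1.

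The partners and regulators of these genes were read from lists of general knowledge, chosen with earlier results of these data known. Beside each list stand the shares over all genes tested, 26.8% called higher and 26.8% called lower. Of 13 other bZIP genes that can join AP-1, 12 were tested, of which 7 were higher and 3 lower, with a median log2 fold change of 0.14. MAF, a large Maf factor, rose from 1056 ± 20.2 normalized reads in control to 2074 ± 48.4 in libraries labelled PELP1-KD (SD, n = 3 each, log2 fold change 0.97, adjusted p = 8.39e-13). BATF2 rose by 0.75 (adjusted p = 2.81e-05). JDP2, which represses AP-1 sites as a partner of JUN, fell by 0.34, MAFF by 0.17 and the stress-induced ATF3 by 0.20. Without PELP1-KD replicate 3, 5 genes of this list were lower in place of 3.

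The EGR partners NAB1 and NAB2, corepressors that bind EGR1, both fell. NAB1 had 1194 ± 60.8 normalized reads in control and 901 ± 8.14 in libraries labelled PELP1-KD (SD, n = 3 each). Its log2 fold change was −0.41 (adjusted p = 2.61e-06), and that of NAB2 was −0.24 (adjusted p = 0.00145). EGR4, the remaining gene of the list, did not pass the filter on low counts. SRF, the serum response factor that binds CArG boxes, fell from 1541 ± 60.0 normalized reads in control to 1110 ± 54.1 in libraries labelled PELP1-KD (SD, n = 3 each, log2 fold change −0.47, adjusted p = 2.39e-07). Its partner ELK1, a target of ERK, fell by 0.19 (adjusted p = 0.00616), and its actin-regulated coactivator MKL1 rose by 0.44 (adjusted p = 3.04e-08). The other 3 genes of this list of 6 were not called. With the replicate number as a block, 3 genes of the list were higher in place of 1, and without PELP1-KD replicate 3 there were 2.

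Of 20 MAP kinases and their downstream kinases, 18 were tested, of which 5 were lower, 2 higher and 11 not called, with a median log2 fold change of −0.06. Among all genes tested, 26.8% were lower and 26.8% higher. MAP2K3, an activator of p38, fell by 0.70 (adjusted p = 7.69e-10), MAP2K4, an activator of JNK, by 0.23, and MAPK3 (ERK1) by 0.19, whereas RPS6KA1 rose by 0.17 and RPS6KA3 by 0.12. With the replicate number as a block, 8 were lower in place of 5. Without control replicate 3, PELP1-KD replicate 1 or PELP1-KD replicate 2, 1 was higher in place of 2.

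Other immediate early genes did not share the size of the EGR1 change. Of 28 such genes, 25 were tested, of which 10 were lower and 8 higher, with a median log2 fold change of −0.06. The shares over all genes tested were 26.8% lower and 26.8% higher. CTGF, a matricellular protein and the only gene of the list to change at least 2-fold, fell from 5347 ± 74.3 normalized reads in control to 2411 ± 79.7 in libraries labelled PELP1-KD (SD, n = 3 each, log2 fold change −1.15, adjusted p = 6.52e-15). RHOB fell by 0.72 and MCL1 by 0.40 on the log2 scale. IER5 rose by 0.70, BTG1 by 0.32 and SGK1 by 0.27. The NR4A genes, orphan nuclear receptors of the early response, were not called, with log2 fold changes of 0.06 (NR4A1, adjusted p = 0.375), 0.07 (NR4A2, adjusted p = 0.8) and 0.09 (NR4A3, adjusted p = 0.873). The NR4A genes were singled out after their values had been seen.

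A list of 19 genes often described as AP-1 targets had 14 tested genes, of which 10 were higher and 1 was lower, with a median log2 fold change of 0.48. Across all genes tested, 26.8% were higher and 26.8% lower. This list too was chosen with earlier results of these data known. CD44, the hyaluronan receptor, rose from 569 ± 29.0 normalized reads in control to 1805 ± 76.3 in libraries labelled PELP1-KD (SD, n = 3 each, log2 fold change 1.67, adjusted p = 4.1e-15), and SPP1, which encodes osteopontin, rose by 1.08 (adjusted p = 2.04e-10). The gene that fell was TIMP1, an inhibitor of metalloproteinases, with a log2 fold change of −2.42, which was named after its values had been seen and was not tested with at least 10 reads in every library. The matrix metalloproteinases MMP1, MMP3, MMP9, MMP10 and MMP13 did not pass the filter on low counts. Many factors besides AP-1 act on these genes. The fibroblast markers COL1A1, COL1A2 and LUM rose with them (log2 fold changes 1.44, 0.51 and 0.92), while PDGFRB fell by 2.13. COL3A1 was tested and not called (log2 fold change −0.07, edgeR adjusted p = 0.816). The 8 fibroblast markers summed to between 10.3 and 11.3 RPKM in control and between 17.4 and 17.7 RPKM in libraries labelled PELP1-KD, with THY1 at 0 and DCN and ACTA2 too low to be tested. Of 6 immune markers 3 were tested, of which CD68 rose by 0.48 and CD14 fell by 0.98, and their summed level was 25.2 to 28.3 RPKM in control and 33.5 to 36.1 RPKM in libraries labelled PELP1-KD. The part of other cell types in these results was not tested.

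**Figure D4:**
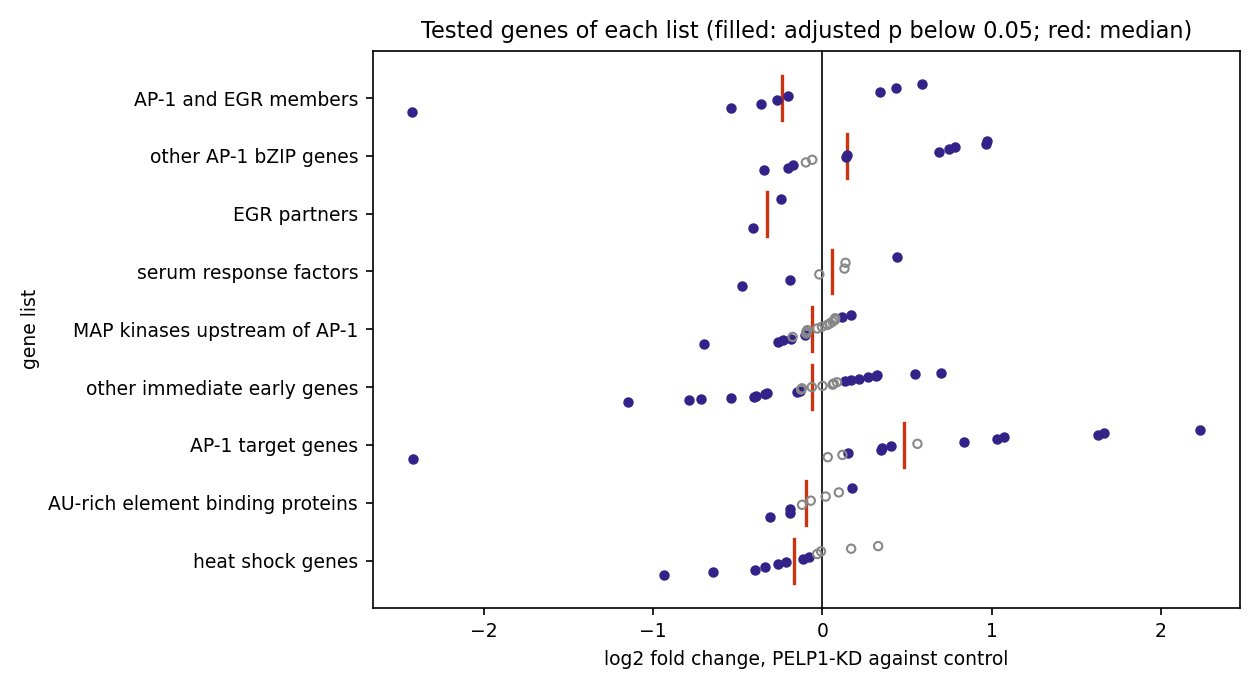
Log2 fold change (x axis, PELP1-KD against control) of each tested gene in 9 lists, with filled points for an adjusted p below 0.05, open points for the others, and a red line at the median of each list. EGR1 and TIMP1 are the lowest points at −2.42, CD44 lies at 1.67, and the other immediate early genes spread on both sides of 0.

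Messages of FOS, JUN and EGR1 are known to be short-lived, with AU-rich elements that speed their decay. Of 8 genes for AU-rich element binding proteins, all tested, 3 were lower and 1 higher. For this list and the heat shock genes below, the shares over all genes tested were 26.8% lower and 26.8% higher. The lower ones were KHSRP (log2 fold change −0.31, adjusted p = 1.54e-07), HNRNPD (−0.19) and the stabilizing protein ELAVL1 (−0.19), and the higher one was ZFP36L1 (0.17). With the replicate number as a block, or without PELP1-KD replicate 3, 2 were higher. None of the heat shock genes, which respond to protein stress, passed the test as higher. Of 13 of these genes 12 were tested, of which 8 were lower, 0 higher and 4 not called, with a median log2 fold change of −0.17. HSPA1A (0.037 to 0.20 RPKM over the libraries) and HSPA1B (0.13 to 0.28 RPKM) were very low and not called. HSPA1L did not pass the filter on low counts. These HSPA1 genes were named after their values had been seen, and a change in them could hardly be measured. HSPH1 fell by 0.94, HSPB1 by 0.64 and HSPD1 by 0.21.

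The genes most like EGR1 over the 6 libraries were LINGO1, TFEB and S100A16, by the Euclidean distance between log2 profiles centered on each gene's mean, among 11981 tested genes with at least 100 normalized reads in a group. Their distances were 0.21, 0.21 and 0.28. LINGO1, a neuronal membrane protein, had 377 ± 14.1 normalized reads in control and 68.7 ± 5.22 in libraries labelled PELP1-KD (SD, n = 3 each). TFEB, a regulator of lysosome genes, had 454 ± 16.5 and 93.9 ± 0.860 (SD, n = 3 each), and S100A16, a calcium-binding protein, had 826 ± 22.1 and 175 ± 9.64 (SD, n = 3 each).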

How the data were processed

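RNA-seq of Hep3B cells comprised 3 control libraries and 3 labelled PELP1-KD, grouped by the treatment in their labels. The headers of the tables name featureCounts 1.5.0-p1, which counted reads by strand over the exons of hg19 genes at a minimum mapping quality of 2 and shared out reads that matched several places or genes as fractions. The submitters' processing notes also name HISAT2, whereas the methods of the study name TopHat2 and HTSeq. The authors thus deposited estimated counts without normalization, of which 10.6% to 13.3% per library were not whole. Here they were rounded. The 10 members and all lists were chosen with earlier results of these data known.

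Groups were compared with edgeR 4.0.16 (R 4.3.3, TMM, filterByExpr, robust glmQLFit, glmQLFTest), with Benjamini-Hochberg adjustment over 14537 genes and a threshold of 0.05. Standard errors were derived from F and the log2 fold change, and intervals use the moderated degrees of freedom. Normalized reads are reads divided by each library's TMM-scaled size, set to a geometric mean of 1. All members were named, and of each list the called genes whose higher group averaged 100 normalized reads or more, up to 3 per direction by p, except a few that are not reported here. The alternatives were other normalizations, filters, DESeq2 1.42.0, an adjusted p below 0.01, a block for the replicate number, and omission of each library in turn. Libraries with the same number deviated together (correlations of 0.336, 0.247 and 0.666 over 6370 genes), which was taken as pairing. Control replicate 2 also correlated with PELP1-KD replicate 1 (0.418) and control replicate 1 with PELP1-KD replicate 2 (0.244), so the check sets only the third number apart and does not tell 1 from 2. On simulated counts for this comparison (14437 genes), edgeR found 100 of 100 genes changed 2-fold and 93 of 100 changed by 0.5 on the log2 scale, with 14 false calls. The simulation gave every gene the same spread between libraries and changed only these genes, none with as few reads as FOSB. It does not show how often changes are found or falsely called among rarer or more variable genes.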

Additional observations from a re-analysis of the deposited data

How the results depend on the processing

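The calls of EGR1, JUN, JUNB, JUND and FOSL2 held in all 14 alternatives, with log2 fold changes of −2.47 to −2.38, −0.43 to −0.30, −0.36 to −0.20, −0.27 to −0.15 and 0.42 to 0.45. FOS, FOSB and FOSL1 kept their direction in all 14 but were called in 10, 9 and 8 of them. The number of members called higher was 1 in place of 3 with DESeq2 and 1 with an adjusted p below 0.01, and 1 to 3 with a library left out (1 without control replicate 2 or PELP1-KD replicate 2). The number called lower was 4 or 5 throughout. PELP1 had a log2 fold change of −0.08 (−0.083, adjusted p = 0.0106) with the replicate block, and −0.10 to −0.040 with a library left out. The replicate block changed no call of a member. No normalization moved the median of all genes by more than 0.021. At these depths FOSB, with 26 to 47 reads per library, and FOS, with 51 to 118, were the least precise of the tested members, and EGR2 and EGR3 could not be tested. Scaling by library totals alone gave 2 serum response factors as higher in place of 1.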
